A study of Mus musculus with 9 samples.

Results

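The Notch ligands, receptors and target genes described here are 10 genes, Dll1, Dll4, Jag1, Jag2, Notch1, Notch2, Notch4, Hes1, Hey1 and Heyl, picked by symbol from tables of 24421 gene symbols. They were measured in mouse eyes with laser-induced choroidal neovascularization, where burns through the Bruch membrane let choroidal vessels sprout beneath the retina. Male mice of 8 weeks had 4 burns in each eye and 5 µg of 1 of 3 reagents injected into the vitreous. The 3 groups of 3 libraries were named for these reagents. Fc is an antibody fragment that serves as the control. ABTAA is an antibody to angiopoietin 2 that clusters it into an activator of Tie2, a receptor of endothelial cells. VEGF Trap is a decoy that binds VEGF before its receptors can. All groups were burned and injected, so no library shows uninjured or uninjected tissue. RNA came from laser-captured lesions with a margin of pigment epithelium and choroid, and was read at the 3 prime ends of transcripts. Strain, genotype, the day of collection and the number of animals behind a library were not given in the sources used here, and the Fc tables carry a column heading that names controls of a knockout, although the sample titles say Fc.

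Notch signalling passes between touching cells. A ligand of the Delta-like or Jagged family on one cell binds a Notch receptor on its neighbour, proteases then cut the receptor, and its freed intracellular part joins the DNA-binding protein RBPJ in the nucleus and switches on repressor genes of the HES and HEY families. In growing vessels Dll4 on the leading tip cell restrains sprouting of its neighbours, VEGF raises Dll4, Jagged1 opposes Dll4, and the same pathway is used for arterial identity and, through Notch3, for the mural cells that wrap vessels.

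Total counts were 6335805 to 14439835 per library. Endothelial markers were detected in every group: their summed level over 20 genes was 1995 to 2545 CPM (a gene's count relative to its library's total, scaled by TMM) in Fc, 3034 to 3191 in ABTAA and 2335 to 2607 in VEGF Trap. All 20 endothelial markers had counts in each library, and so did all 7 pigment epithelium markers but Best1, which had 0 in Fc 3. The pigment epithelium sum was 1211 to 2265 CPM over the 9 libraries. The skeletal muscle sum was 112 to 173 CPM in Fc, 248 to 517 in ABTAA and 239 to 421 in VEGF Trap. The macrophage and microglia sum was 1818 to 1941 CPM in Fc, 1471 to 1758 in ABTAA and 1798 to 2041 in VEGF Trap, and the Schwann cell sum 60.7 to 93.7, 96.0 to 105 and 74.1 to 132. The photoreceptor sum ranged from 54.8 to 119 CPM in 8 libraries and was 200.3 in VEGF Trap 1. The lens sum ranged from 12.2 to 25.1 CPM in 8 libraries and was 63.5 in VEGF Trap 1. In bulk tissue, fewer cells of a type and less RNA per cell cannot be told apart. Since the animals behind each library are not named, p-values here reflect only the spread between libraries, which may be technical.

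None of the 10 Notch genes passed the test (adjusted p under 0.05, edgeR) in any comparison, where 1.4%, 1.02% and 0% of tested genes did in ABTAA against Fc, VEGF Trap against Fc and ABTAA against VEGF Trap. The Notch4 receptor came nearest: its 3 ABTAA libraries stood above all 3 Fc and all 3 VEGF Trap libraries, by a log2 fold change of 0.62 ± 0.22 (SE) against Fc and 0.79 ± 0.22 against VEGF Trap. Among the ligands, Jag1, Dll1 and Dll4 overlapped between all groups. The target genes Hey1 and Heyl had their highest means in ABTAA and their lowest in VEGF Trap, with overlap between each treatment and Fc.

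Jag1 encodes Jagged1, a ligand made by endothelial, smooth muscle and many other cells, and lies on chromosome 2 from 137081456 to 137116644 in GRCm38 (the build that mm10 names). It stood at 40.8, 49.1 and 53.2 CPM in Fc 1, 2 and 3, at 49.6, 49.9 and 40.1 in ABTAA 1, 2 and 3, and at 54.9, 42.0 and 59.1 in VEGF Trap 1, 2 and 3. The 3 groups covered the same range. Its log2 fold change was -0.03 ± 0.16 (SE) in ABTAA against Fc, with a 95% interval of -0.37 to 0.30, and 0.12 ± 0.16 in VEGF Trap against Fc, with an interval of -0.21 to 0.45. Of the 4 ligands, Jag1 had the narrowest interval in each comparison.

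Dll4, the Delta-like ligand of tip cells and arteries, lies on chromosome 2 from 119325784 to 119335962. Its level was 3.08, 2.04 and 1.60 CPM in Fc 1, 2 and 3, from 33, 24 and 21 counts. In ABTAA 1, 2 and 3 it was 4.03, 3.37 and 1.56 CPM, from 39, 34 and 10 counts. In VEGF Trap 1, 2 and 3 it was 3.65, 2.30 and 2.63 CPM, from 44, 33 and 19 counts. The lowest of the 9 values was an ABTAA library and so was the highest, so the groups overlapped. The log2 fold change was 0.45 ± 0.44 in ABTAA against Fc (interval -0.48 to 1.37) and 0.36 ± 0.43 in VEGF Trap against Fc (interval -0.56 to 1.28, adjusted p = 0.75, edgeR). A fall of Dll4 under VEGF blockade deeper than 0.56 on the log2 scale lies outside that interval. The end of the interval is not a limit of detection, and the smallest fall detectable at this depth was not estimated.

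Dll1, the ligand used widely in development and in immune cells, lies on chromosome 17 from 15367354 to 15376872. Its counts were 8 to 22 in Fc, 9 to 32 in ABTAA and 11 to 47 in VEGF Trap, or 0.679 to 2.06, 1.19 to 3.31 and 0.766 to 3.90 CPM. The highest value of each group was its library numbered 1, and the groups overlapped. Jag2, the second Jagged ligand (chromosome 12 from 112907819 to 112929776), had 2 to 18 counts in Fc, 2 to 6 in ABTAA and 8 to 17 in VEGF Trap. Fc 3 and ABTAA 2 held 2 counts each, under the floor of 3 counts. Jag2 stood at 0.198 to 0.782 CPM in ABTAA and 0.836 to 1.41 in VEGF Trap, which did not overlap, but the log2 fold change of -1.10 had an interval of -2.82 to 0.62. The intervals of Dll1 ran from -0.84 to 1.87 in ABTAA against Fc and from -0.65 to 2.02 in VEGF Trap against Fc. Such wide intervals leave the size and direction of a difference unsettled, and the smallest difference detectable at this depth was not estimated.

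Notch4 is a receptor whose expression is largely endothelial, and lies on chromosome 17 from 34564268 to 34588503. It stood at 7.94, 7.81 and 7.33 CPM in Fc 1, 2 and 3 (85, 92 and 96 counts). In ABTAA 1, 2 and 3 it stood at 11.4, 11.8 and 12.4 CPM (110, 119 and 79 counts). In VEGF Trap 1, 2 and 3 it stood at 7.05, 8.22 and 4.99 CPM (85, 118 and 36 counts). Each ABTAA library was above each library of the other 2 groups, while VEGF Trap and Fc overlapped. Against Fc the log2 fold change was 0.62 ± 0.22 in ABTAA (interval 0.15 to 1.09, unadjusted p = 0.0126, adjusted p = 0.16, edgeR) and -0.17 ± 0.22 in VEGF Trap (interval -0.64 to 0.31, adjusted p = 0.777). ABTAA against VEGF Trap gave 0.79 ± 0.22 (interval 0.32 to 1.26, unadjusted p = 0.00283, adjusted p = 0.932). The difference from Fc was 0.58 to 0.65 without any single library. It was 0.30 with the endothelial total as a covariate and 0.31 with the skeletal muscle total, both alternatives chosen after seeing the data. Both totals were higher in each ABTAA library than in each Fc library, so these fits cannot separate the total from the group.

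Notch1, the receptor through which Dll4 acts on sprouting endothelium (chromosome 2 from 26457903 to 26516663), had little spread in Fc. It stood at 21.4, 22.2 and 22.7 CPM in Fc 1, 2 and 3, at 23.0, 26.3 and 23.2 in ABTAA 1, 2 and 3, and at 22.5, 22.1 and 16.1 in VEGF Trap 1, 2 and 3. The ABTAA libraries stood above the other 6, by a margin over the highest Fc library that was smaller than the SD of ABTAA (1.84 CPM). The log2 fold change was 0.13 ± 0.16 against Fc (interval -0.20 to 0.47) and 0.25 ± 0.16 against VEGF Trap (interval -0.09 to 0.59). The lowest VEGF Trap library was the same one, VEGF Trap 3, for Notch1, Notch2 and Notch4.

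Notch2, a receptor of many cell types including macrophages and pigment cells (chromosome 3 from 98013527 to 98150361), ranged more within groups than between them. Its levels were 31.2, 28.9 and 26.8 CPM in Fc 1, 2 and 3, 28.2, 37.0 and 22.2 in ABTAA 1, 2 and 3, and 36.6, 26.6 and 20.5 in VEGF Trap 1, 2 and 3. The 3 means were 29.0, 29.1 and 27.9 CPM for Fc, ABTAA and VEGF Trap, with an SD of 2.2, 7.43 and 8.1. The log2 fold changes were 0.02 ± 0.21 in ABTAA (interval -0.42 to 0.46) and -0.04 ± 0.21 in VEGF Trap (interval -0.48 to 0.39).

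The stretches just before the starts of Notch1 and Notch4 are shown because these were the members whose ABTAA libraries did not overlap Fc. They are RefSeq promoter windows on GRCm38.p6, 5′ to 3′ along each gene, without bases inside a GENCODE exon, at chr2:26503825-26504072 (minus strand) for Notch1 and chr17:34564045-34564267 (plus strand) for Notch4. The Notch1 stretch lies inside the annotated span of the gene, between exons. Capitals mark GGAAG or its reverse complement CTTCC, a string that holds the shorter GGAA core bound by ETS factors. GGAA alone was not searched.
Notch1: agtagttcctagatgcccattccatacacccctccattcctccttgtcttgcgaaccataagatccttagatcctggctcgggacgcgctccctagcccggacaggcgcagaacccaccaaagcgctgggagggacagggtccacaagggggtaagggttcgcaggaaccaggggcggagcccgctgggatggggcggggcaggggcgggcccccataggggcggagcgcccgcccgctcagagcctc
Notch4: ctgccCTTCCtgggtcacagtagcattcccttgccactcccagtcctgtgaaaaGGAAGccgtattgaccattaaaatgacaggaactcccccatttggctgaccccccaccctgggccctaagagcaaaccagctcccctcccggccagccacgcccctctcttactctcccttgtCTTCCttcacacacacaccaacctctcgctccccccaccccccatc
Notch4 held 3 matches, beginning 245, 196 and 73 bases before its RefSeq start, and Notch1 held 0. The shorter GGAA and its reverse complement TTCC do stand in the Notch1 stretch. GGAAG or CTTCC stood in 64.1% of the 32851 windows of 250 bases in the table. In the 250 bases before the start, Dll4 held 2 matches and Notch2 and 1 of the 2 Dll1 windows held 1 each, while the Jag1 and Jag2 windows held none. The RBPJ core TGGGAA, searched on both strands and present in 21.6% of windows, was in 0 of the 8 windows of the 7 members in the table. Hes1, Hey1 and Heyl were not among these 7. A match is a run of letters and was not tested as a binding site.

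Hes1, a repressor of the HES family switched on by Notch and by other signals (chromosome 16 from 30064384 to 30067796), had the narrowest intervals of the 10 genes. Its levels were 55.9, 51.6 and 62.1 CPM in Fc 1, 2 and 3, 53.7, 64.4 and 64.3 in ABTAA 1, 2 and 3, and 53.0, 54.8 and 53.7 in VEGF Trap 1, 2 and 3. All 3 groups overlapped. The log2 fold change was 0.10 ± 0.13 in ABTAA (interval -0.17 to 0.37) and -0.07 ± 0.13 in VEGF Trap (interval -0.34 to 0.20), so changes of Hes1 beyond 0.37 in either direction lie outside both intervals.

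Hey1, a HEY family repressor of arterial endothelium (chromosome 3 from 8663359 to 8667256), stood at 14.1, 14 and 11.6 CPM in Fc 1, 2 and 3. It stood at 14.8, 13.6 and 17.7 in ABTAA 1, 2 and 3, and at 8.95, 13.4 and 12.3 in VEGF Trap 1, 2 and 3. Each ABTAA library was above each VEGF Trap library, and both groups overlapped Fc. The log2 fold changes against Fc were 0.21 ± 0.20 (interval -0.21 to 0.63) and -0.20 ± 0.20 (interval -0.62 to 0.23), and the direct difference was 0.40 ± 0.20 (interval -0.02 to 0.83, unadjusted p = 0.0623, adjusted p = 0.962, edgeR).

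Heyl, a HEY family gene of vascular smooth muscle and pericytes (chromosome 4 from 123233556 to 123249875), stood at 7.94, 14.8 and 8.78 CPM in Fc 1, 2 and 3. It stood at 11.6, 12.6 and 18.3 in ABTAA 1, 2 and 3, and at 5.97, 11.9 and 6.38 in VEGF Trap 1, 2 and 3. Fc 2 and VEGF Trap 2 were high within their groups and within the range of ABTAA. ABTAA against VEGF Trap gave 0.78 ± 0.30 (interval 0.13 to 1.42, unadjusted p = 0.0221, adjusted p = 0.949, edgeR), and the differences from Fc were 0.42 ± 0.30 in ABTAA and -0.36 ± 0.30 in VEGF Trap. The ABTAA difference from Fc was 0.13 once skeletal muscle total entered as a covariate and 1.27 once the endothelial total did. The difference from VEGF Trap was 0.73 and 1.27 with the same covariates, and none of these passed. Neither total overlapped between ABTAA and Fc, and the endothelial total did not overlap between ABTAA and VEGF Trap. The fits with these covariates cannot separate the total from the group there. The summed level of 10 pericyte and smooth muscle markers was 779 to 1060 CPM in Fc, 1037 to 1374 in ABTAA and 757 to 1065 in VEGF Trap. Most of it was Acta2, at 446 to 617 CPM in Fc, 621 to 860 in ABTAA and 391 to 668 in VEGF Trap. The part of this sum in the Heyl values was not tested.

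**Figure D1:**
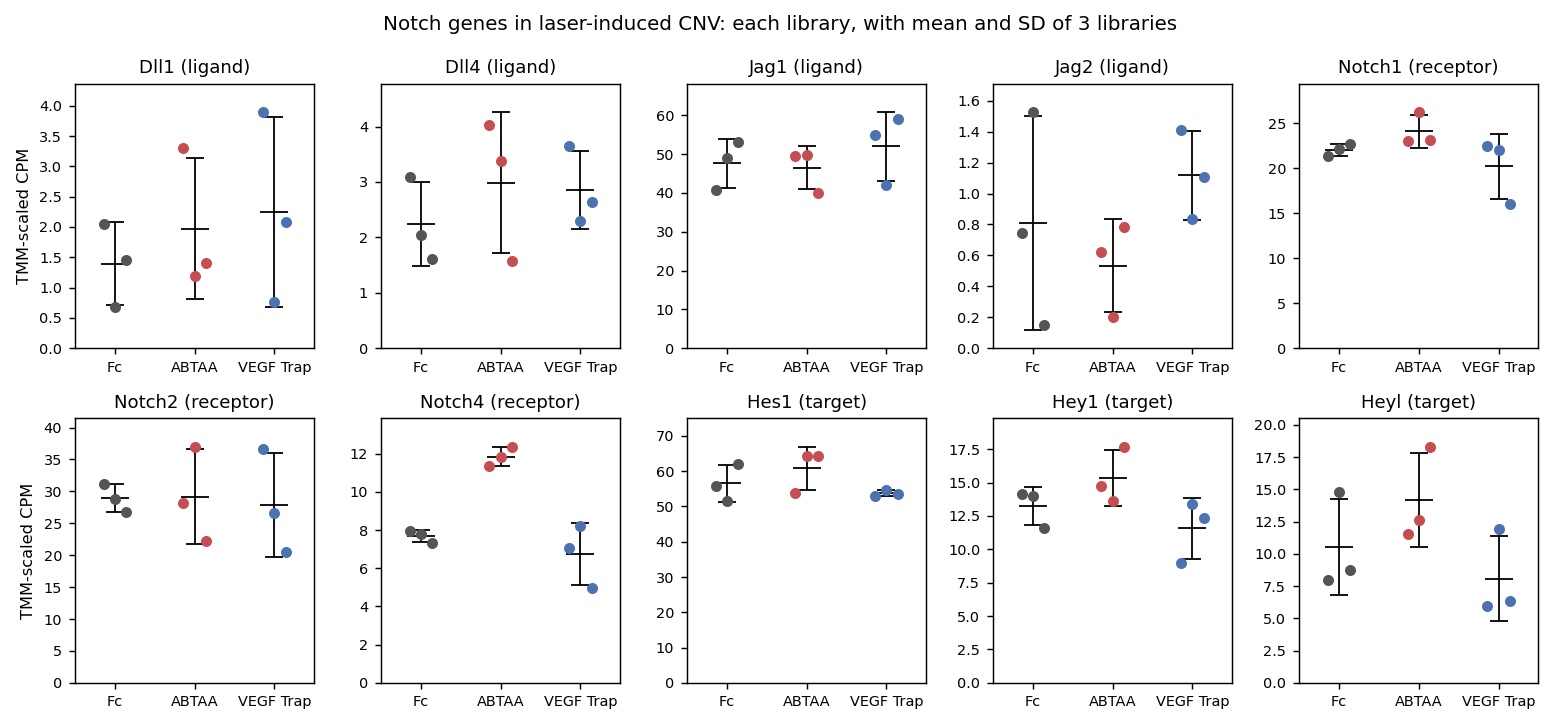
Level of each Notch gene in each of the 9 libraries (TMM-scaled CPM, linear axes from 0), with points for libraries 1, 2 and 3 from left to right in each group and bars for the mean and SD of 3 libraries. Notch4 sits at 11.4 to 12.4 CPM in ABTAA and at 4.99 to 8.22 CPM in the other 6 libraries, while most other genes overlap between groups.

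The comparison of ABTAA with Fc asks what a reagent that binds angiopoietin 2 and activates Tie2 does to the lesion. No group separates these actions. By edgeR 0 of 10 Notch genes passed, where 0.847% of the 14054 tested genes were called higher and 0.555% lower, and DESeq2 and limma-voom also called 0 members, where they called 5.34% and 2.92% of tested genes. One member, Notch4, had an unadjusted p under 0.05, where 16.9% of tested genes had. Groups did not overlap for 2 members, Notch1 and Notch4, both higher, where 11.7% of tested genes were higher without overlap and 11.3% lower. The fold change was above 0 for 8 of 10 members and for 49.6% of tested genes. The median log2 fold change was 0.17 over the 10 members and -0.0029 over all tested genes. By role the medians were 0.21 for the ligands, 0.13 for the receptors and 0.21 for the targets.

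In VEGF Trap against Fc, the comparison that asks what VEGF blockade does, 0 of 10 passed by edgeR, where 0.512% of tested genes were called higher and 0.512% lower, and 0 had an unadjusted p under 0.05, where 15.4% had. DESeq2 and limma-voom called 0 members, where they called 4.77% and 1.72% of tested genes. No member was without overlap, where 10.4% of tested genes were higher and 10.5% lower without it. The fold change was above 0 for 4 of 10 members and for 50.1% of tested genes. The median was -0.06 over the members and 0.001 over all tested genes, with 0.41 for the ligands, -0.12 for the receptors and -0.20 for the targets. The ligand median lies between the values of Dll4 (0.36) and Jag2 (0.47), and the intervals of all 4 ligands spanned 0. Both treatments were set against the same 3 Fc libraries.

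ABTAA was also set directly against VEGF Trap, which asks where the agents part. By edgeR 0 of 10 members passed, where 0% of tested genes did (711 had an unadjusted p under 0.05), and DESeq2 and limma-voom called 0 members, where they called 0.00712% (1 gene) and 0% of tested genes. Notch4 and Heyl had an unadjusted p under 0.05, or 2 of 10 members, where 5.06% of tested genes had. Notch1, Notch4 and Hey1 were higher in ABTAA without overlap, where 5.14% of tested genes were, and Jag2 was lower, where 4.74% were. The fold change was above 0 for 7 of 10 members and for 49.5% of tested genes. Median log2 fold changes were -0.16 for the 4 ligands, 0.25 for the 3 receptors, 0.40 for the 3 targets, 0.13 for all 10 members and -0.0033 for all tested genes. Of the ligands, 1 of 4 was above 0.

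**Figure D2:**
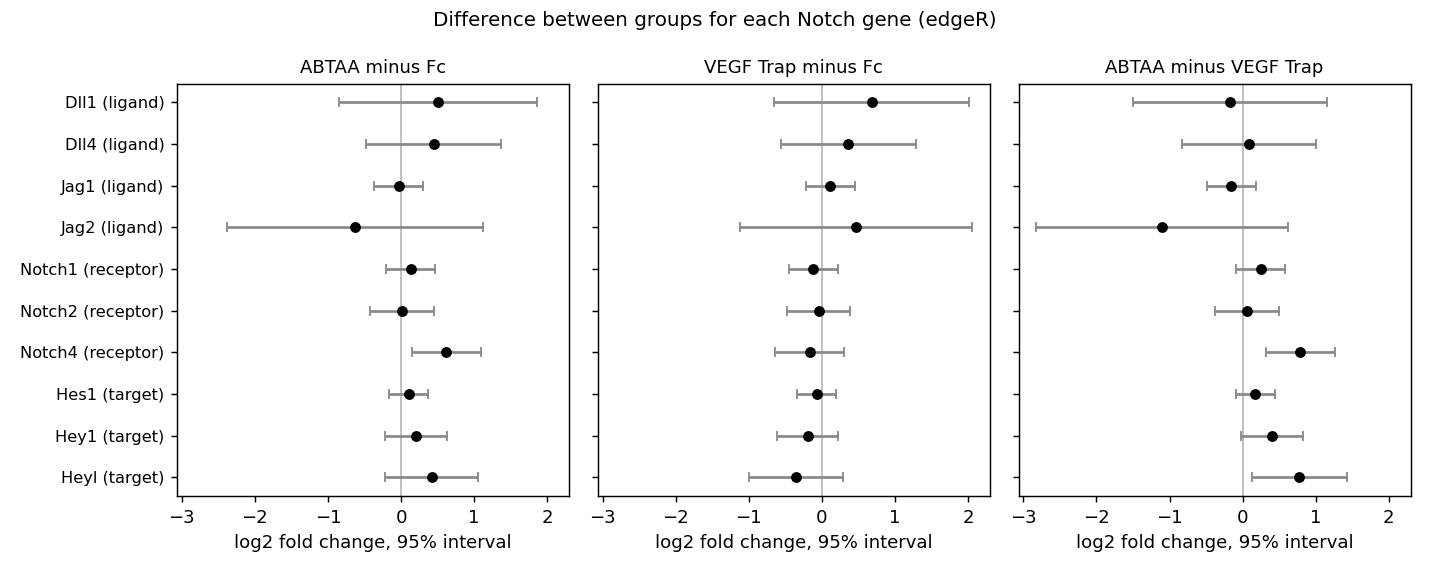
Log2 fold change of each Notch gene with its 95% interval (edgeR, 3 libraries per group) for the 3 comparisons. The intervals of Notch4 lie above 0 in ABTAA against Fc (0.15 to 1.09) and against VEGF Trap (0.32 to 1.26), that of Heyl above 0 only against VEGF Trap (0.13 to 1.42), and the widest belong to Dll1 and Jag2, which had the fewest counts.

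Because the endothelial sum itself was higher in ABTAA, each member was also expressed as a percentage of that sum in the same library. Notch4 was then 0.312% to 0.391% in Fc and 0.356% to 0.407% in ABTAA, which overlapped, and 0.214% to 0.321% in VEGF Trap, below each ABTAA library. Jag1 was 1.60% to 2.60% in Fc, 1.32% to 1.57% in ABTAA and 1.64% to 2.53% in VEGF Trap. Jag1, Notch1, Notch2 and Hes1 were thus lower in ABTAA than in Fc without overlap, 4 of 10 members, where 50.2% of all tested genes were, and 0 members were higher, where 0.505% were. On this scale 1 member, Hey1, was lower in VEGF Trap than in Fc without overlap, where 18.5% of tested genes were, and 0 were higher (2.55%). Against VEGF Trap 1 member, Notch4, was higher in ABTAA (0.583% of tested genes) and 2 were lower, Jag1 and Jag2 (33.9%). These genes are also expressed outside the endothelium, so the percentage is not a level per endothelial cell. The endothelial sum leaned most on Egfl7, at 903 to 1169 CPM in Fc, 1420 to 1526 in ABTAA and 1040 to 1235 in VEGF Trap. The percentages and the endothelial covariate thus depend largely on this gene. Of the 20 markers, 17 had a log2 fold change above 0 in ABTAA against Fc, where 49.6% of tested genes had.

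**Figure D3:**
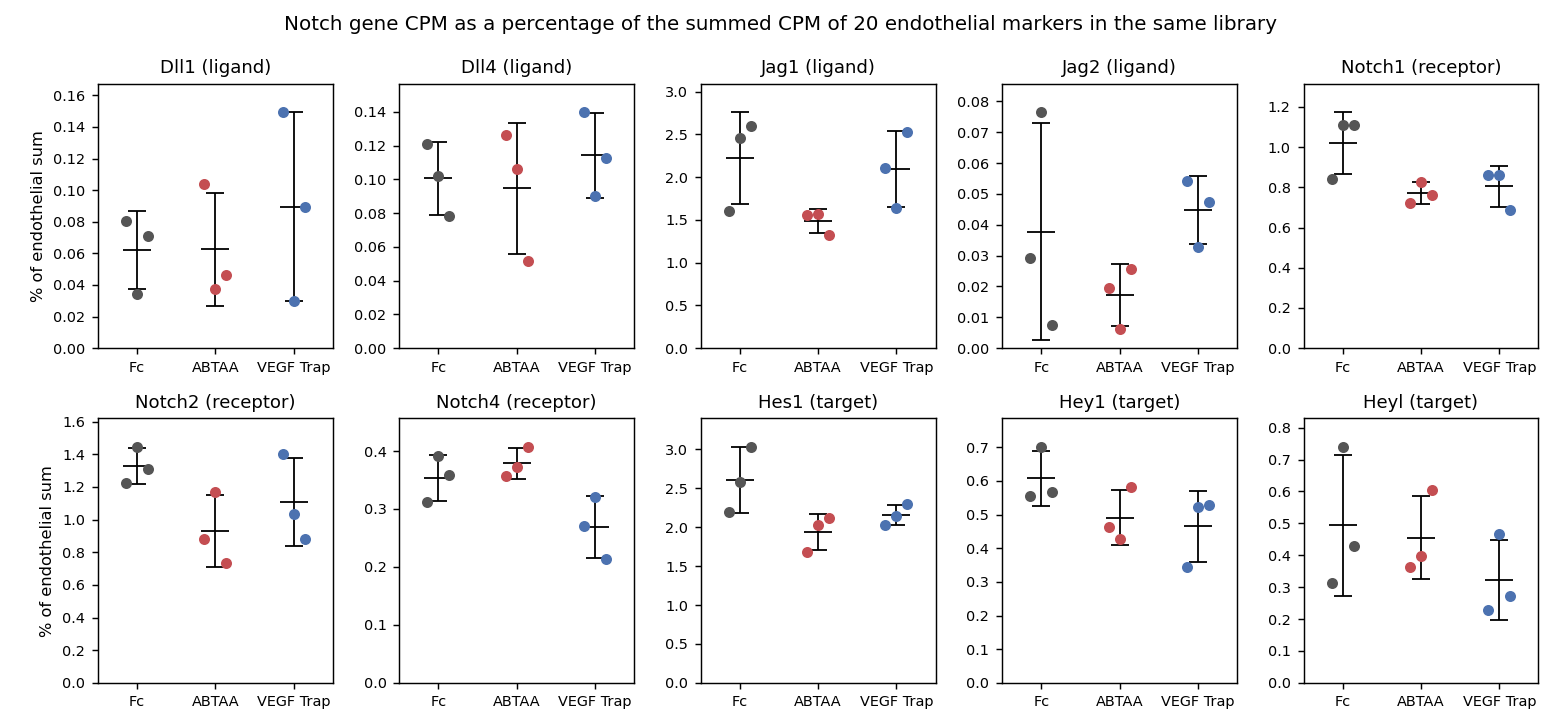
Level of each Notch gene as a percentage of the summed CPM of 20 endothelial markers in the same library (linear axes from 0; points are libraries, bars the mean and SD of 3). Notch4 overlaps between Fc (0.312% to 0.391%) and ABTAA (0.356% to 0.407%). Jag1 in ABTAA (1.32% to 1.57%) lies below Fc (1.60% to 2.60%), as 50.2% of all tested genes do without overlap on this scale.

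The other genes of the pathway were followed in lists by step. Of 66 such genes 62 could be tested, and by edgeR 0 passed in any comparison. In ABTAA against Fc 14 of them had an unadjusted p under 0.05, where 16.9% of tested genes had. DESeq2 called 5 (Adam17, Dtx4, Kat2a, Neurl1b and Pofut1) and limma-voom 2 (Kat2a and Pofut1), where these tools called 5.34% and 2.92% of tested genes. In VEGF Trap against Fc 10 had an unadjusted p under 0.05, where 15.4% of tested genes had. DESeq2 called 4 (Adam17, Dtx4, Pofut1 and Tle4), where it called 4.77% of tested genes, and limma-voom 0, where it called 1.72%. In ABTAA against VEGF Trap 3 had an unadjusted p under 0.05, where 5.06% of tested genes had, and DESeq2 and limma-voom called 0. Without overlap, 8 of the 62 were higher and 7 lower in ABTAA than in Fc, where 11.7% and 11.3% of tested genes were. In VEGF Trap against Fc 8 were higher and 3 lower, where 10.4% and 10.5% were. ABTAA against VEGF Trap gave 3 higher and 5 lower, where 5.14% and 4.74% were. Genes named below from these lists had the 2 smallest p-values of their list in ABTAA against Fc.

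Of the other ligands and receptors, Notch3, the receptor of pericytes and smooth muscle, stood at 10.3, 8.91 and 11.1 CPM in Fc 1, 2 and 3, 9.09, 12.6 and 20.7 in ABTAA and 7.13, 12.4 and 9.98 in VEGF Trap. ABTAA 3 was the highest library for Notch3, Hey1 and Heyl. The Delta-like homologue Dlk2 had a log2 fold change of 0.34 ± 0.45 in ABTAA against Fc. All counts of Dlk2 are even, so its reads may have been entered more than once. Nrarp, a feedback inhibitor that Notch switches on, had 17.2, 13.4 and 13.2 CPM in Fc, 19.0, 17.1 and 23.9 in ABTAA and 14.8, 16.2 and 14.8 in VEGF Trap, with a log2 fold change of 0.45 ± 0.18 in ABTAA against Fc (adjusted p = 0.213, edgeR) and overlap of 1 pair of libraries, Fc 1 and ABTAA 2. Hes5, a HES family target, averaged 0.744 CPM in Fc and 1.51 in ABTAA and overlapped (adjusted p = 0.538, edgeR).

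Among genes that act on ligands and on receptor sugars, Neurl1b, a ubiquitin ligase that helps ligands enter the cell, stood at 53.3, 48.9 and 48.9 CPM in Fc and 60.6, 64.1 and 69.6 in ABTAA without overlap (0.36 ± 0.12, adjusted p = 0.127, edgeR). It was 46.3 to 48.5 CPM in VEGF Trap. Its relative Neurl3 had a log2 fold change of -0.47 ± 0.24 in ABTAA against Fc. Pofut1, which adds the fucose that Notch receptors need, had 32.1 ± 2.55 CPM in Fc (SD, n = 3), 44.7 ± 1.8 in ABTAA and 43.6 ± 0.574 in VEGF Trap, above Fc without overlap in both (adjusted p = 0.0665 and 0.0873, edgeR). Lfng, the Fringe enzyme that tunes receptors toward Delta ligands, had 62.7 ± 4.09 CPM in Fc and 77.7 ± 5.63 in ABTAA (0.31 ± 0.13, adjusted p = 0.223).

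Of the proteases, Adam17, a sheddase of Notch and many other proteins, averaged 877 ± 94.9 CPM in Fc, 670 ± 76.9 in ABTAA and 659 ± 68.8 in VEGF Trap, lower without overlap in both (adjusted p = 0.109 and 0.0973, edgeR). Ncstn, the nicastrin subunit of gamma-secretase, averaged 6.08 ± 1.16, 10.3 ± 0.992 and 10.1 ± 2.53 CPM in the same order (adjusted p = 0.117 and 0.139, edgeR). An exon of each lies over an exon on the other strand, of Iah1 for Adam17 and of Copa for Ncstn. The strand setting of the counting is not given in the sources used here, so reads of such pairs cannot be told apart. The same holds for Snw1, Spen, Nrarp, Hes5, Notch3, Dlk2, Ephb4, Gja5 and Acvrl1, and for the members Dll1, Dll4 and Notch1. An exon of Notch2 overlaps Gm42820 on the same strand.

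In the nucleus, Kat2a, a histone acetyltransferase that Notch complexes recruit, had 36.1, 24.6 and 28.9 CPM in Fc, 45.9, 49.0 and 45.4 in ABTAA and 35.7, 35.3 and 44.9 in VEGF Trap. The ABTAA libraries stood above the other 6, and the difference from Fc was 0.65 ± 0.16 (adjusted p = 0.0542, edgeR). Kat2a passed in 8 of the 20 alternatives, and all its counts are even, so reads may have been entered more than once. Snw1, a coactivator, had a log2 fold change of -0.31 ± 0.13 in ABTAA against Fc. The corepressor genes Hdac1 (0.44 ± 0.14) and Spen (0.45 ± 0.15) were higher than Fc in each ABTAA library, with adjusted p = 0.126 and 0.127 by edgeR. Of the genes that turn receptors over, Dtx4 averaged 58.9 ± 12.5 CPM in Fc, 40.4 ± 2.53 in ABTAA and 41.3 ± 2.78 in VEGF Trap, and the ubiquitin ligase Itch had a log2 fold change of -0.48 ± 0.16 in ABTAA, with adjusted p = 0.0824 and 0.127 in ABTAA by edgeR.

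Notch is used in arterial identity, so 9 arterial and 4 venous genes were set beside it. Gja4, the gap junction protein connexin 37 of arterial endothelium (chromosome 4 from 127311421 to 127314039), rose in ABTAA. It stood at 11.6, 9.51 and 14.4 CPM in Fc 1, 2 and 3, at 25.0, 31.4 and 22.1 in ABTAA 1, 2 and 3, and at 20.1, 16.9 and 16.8 in VEGF Trap 1, 2 and 3. The 3 groups did not overlap, with VEGF Trap between Fc and ABTAA. The log2 fold change was 1.15 ± 0.19 in ABTAA (interval 0.74 to 1.55, adjusted p = 0.0148, edgeR), and 0.60 ± 0.19 in VEGF Trap (adjusted p = 0.134). The ABTAA call ended without Fc 2 (1.01, adjusted p = 0.0975), without ABTAA 2 (0.99, adjusted p = 0.0949) and with the skeletal muscle (0.81, adjusted p = 0.686) or endothelial (0.96, adjusted p = 0.69) total as a covariate. Because neither total overlapped between ABTAA and Fc, these covariate fits cannot separate the total from the group.

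The other 8 arterial genes did not pass in ABTAA. Acvrl1 came nearest of these, higher than Fc without overlap (0.60 ± 0.15, adjusted p = 0.0553, edgeR). All its counts are multiples of 5, so its reads may have been entered more than once. Of the 9 genes 6 had a log2 fold change above 0 there, while Gja5 (-0.53), Cxcr4 (-0.08) and Nrp1 (-0.07) were below 0. The list had a median of 0.17 in ABTAA and -0.02 in VEGF Trap, where 0 of 9 passed. Of the 20 endothelial markers, 5 passed as higher in ABTAA than in Fc, where 0.847% of tested genes did, with a list median of 0.39. Of the 4 venous genes 0 passed by edgeR in either comparison. Ephb4, a venous receptor of ephrins, had a log2 fold change of 0.55 ± 0.21 in ABTAA against Fc (adjusted p = 0.207, or 0.0238 without the filter, edgeR). The fit without the filter called 684 of 19838 genes in that comparison, where the main fit called 197 of 14054. All counts of Gja5 and Ephb4 are even, so reads of these genes may have been entered more than once. Nrp2, a VEGF co-receptor of veins and lymphatics, had a log2 fold change of -0.23 ± 0.12 in ABTAA against Fc. Aplnr, the apelin receptor of veins and sprouts, was chosen after its values were seen. It stood at 11.3, 9.51 and 7.48 CPM in Fc, 9.71, 9.52 and 5.32 in ABTAA and 3.48, 5.37 and 2.91 in VEGF Trap, below each Fc library (log2 -1.23 ± 0.30, adjusted p = 0.0587, edgeR). Aplnr passed in 6 of the 20 alternatives, DESeq2 among them.

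**Figure D4:**
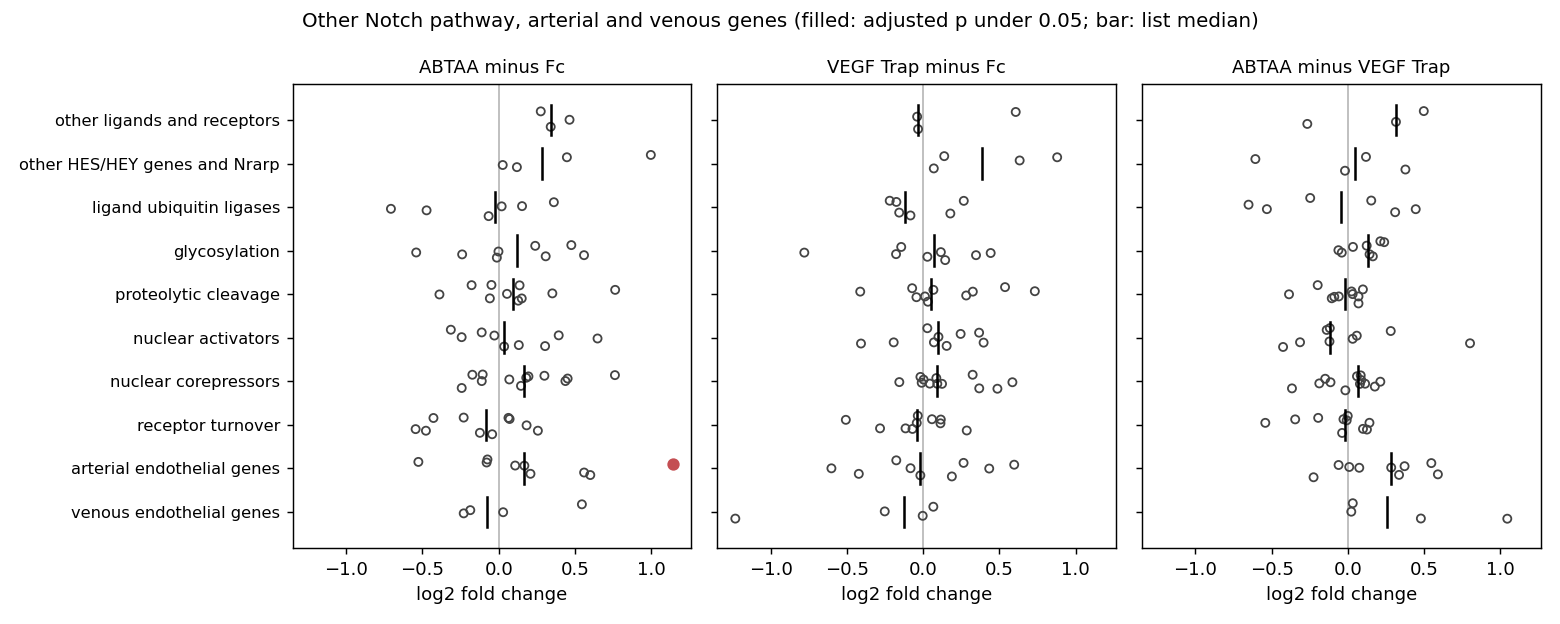
Log2 fold change of each tested gene of the other Notch pathway, arterial and venous lists in the 3 comparisons (open circles did not pass, filled circles passed at an adjusted p under 0.05, black bars are list medians). The filled circle is Gja4 (1.15) in ABTAA against Fc.

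Across the 9 libraries the members did not move as 1 block. The pairs with the highest Pearson correlation of log2 CPM were Notch1 with Notch4 (r = 0.816), Hey1 with Heyl (0.806) and Notch4 with Heyl (0.762), and the lowest was Jag2 with Hes1 (-0.77). Notch4 had r = 0.731 with the summed endothelial level and 0.521 with the pericyte and smooth muscle sum. Hes1, Heyl and Hey1 had 0.693, 0.644 and 0.561 with the pericyte and smooth muscle sum. With the endothelial sum they had 0.357, 0.279 and 0.359. Notch3 had r = 0.73 with Hey1 and 0.671 with Heyl. Each value is a description over n = 9 libraries that share group and depth.

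For the ligand, receptor and target with the highest mean CPM, a choice by counts that ranks no abundance, the 3 genes most alike were sought among 8479 genes with a mean of at least 10 CPM. For Jag1 they were Dcun1d4 (r = 0.944), Camk2d (0.919) and Pcmtd1 (0.904). For Notch2 they were Senp6 (0.94), Zfp266 (0.934) and Dnajb9 (0.931), and for Hes1 they were Dnmt1 (0.907), Rpl35a (0.892) and Phc1 (0.887). None of these 9 genes is in the Notch lists.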

How the data were processed

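Each of the 9 deposited tables gives raw counts by gene symbol for 1 library, and titles set the groups. Per the labels' protocols, LEXOGEN QuantSeq libraries read 3 prime ends, so CPM serves to compare a gene between libraries and not to rank genes by abundance. Percentages of a marker sum are likewise compared only between libraries. Per the submitters' processing notes the authors used Bowtie2 and edgeR with mm10. Versions, annotation, counting tool and strand setting were not given in the sources used here. Only even values filled 1616 (11.4%) of the 14167 genes counted in all libraries, and 0 members.

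Genes kept by filterByExpr (14054, all 10 members among them) were scaled by TMM and fitted with edgeR 4.0.16 in R 4.3.3, as 1 quasi-likelihood model of all libraries with 3 contrasts and Benjamini-Hochberg adjustment at 0.05. SE is the log2 fold change over the root of its F statistic. The biological coefficient of variation was 17.9%. The floor of 3 counts equals 0.208 to 0.474 CPM of library totals and covers counting error only.

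Members and lists were chosen with earlier results of these data known. Named genes were the members, each called gene of the other lists or, failing one, its 2 smallest p-values in ABTAA against Fc, and the genes most alike. Alternatives were DESeq2 1.42.0, limma-voom (limma 3.58.1), RLE scaling, library totals, no filter, 10 counts in 6 libraries, fits of 2 groups, a replicate block, division by common divisors and omission of each library. Covariates for endothelial and skeletal muscle totals were added after seeing the data. Neither total overlapped between ABTAA and Fc. The endothelial total also did not overlap between ABTAA and VEGF Trap, nor the skeletal muscle total between VEGF Trap and Fc. Such fits cannot separate the total from the group in those comparisons. Coordinates are from GENCODE M21 (GRCm38) and promoters from RefSeq. The code was tested on simulated data.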

Additional observations from a re-analysis of the deposited data

How the results depend on the processing

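No member passed in any comparison under the 20 alternatives, omission of each library included. All 10 were tested except Jag2, which the filter of 10 counts in 6 libraries removed in every comparison and the fits of 2 groups in both comparisons with ABTAA. Over 595 refitted member values 37 changed sign, none of which passed in either fit. Other pathway genes called in ABTAA against Fc were 0 as reported, 5 by DESeq2, 2 by limma-voom, 3 unfiltered, and 1 each with 10 counts in 6 libraries, with only the 2 groups compared and in the replicate block, and ran from 0 to 1 without single libraries. In VEGF Trap against Fc they were 0, then 4 by DESeq2, 3 unfiltered, and 1 each with library totals and in the replicate block. The block also took Aplnr past the threshold there (log2 -1.28, adjusted p = 0.0299, edgeR) and changed no other call of a named gene beyond Kat2a in ABTAA and Adam17 in VEGF Trap. Libraries share only a number (same-number correlations of 0.013 to 0.112), although 8 of 9 correlated best with their own number. Over all genes, the 197 calls in ABTAA became 58 and 0 on omission of ABTAA 1 and 2, 47, 13 and 35 on omission of Fc 1, 2 and 3, 373 and 101 without VEGF Trap 1 and 2, 750 by DESeq2, 411 by limma-voom, 684 unfiltered, 301 with only the 2 groups, 334 in the block, and 0 and 9 with the muscle and endothelial covariates. The 144 calls in VEGF Trap became 18, 7 and 32 without Fc 1, 2 and 3, 62, 60 and 25 without VEGF Trap 1, 2 and 3, 671 by DESeq2, 242 by limma-voom, 616 unfiltered, 249 with divided counts, 300 in the block, and 0 and 15 with the covariates. The direct comparison had 0, with 1 by DESeq2 and in the block and 30 unfiltered. Library totals gave 66 higher and 106 lower in ABTAA, after 119 and 78, and 39 and 182 in VEGF Trap, after 72 and 72. The cause was not tested. Depth limits Dll1, Dll4 and Jag2, with 2 to 47 counts per library.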
